A study of Mus musculus with 9 samples.

Results

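The Janus kinases and the inhibitors that act on them were followed by symbol through the table of all genes of the series: the 4 kinases Jak1, Jak2, Jak3 and Tyk2, the 5 members of the suppressor of cytokine signalling (SOCS) family Socs1, Socs2, Socs3, Socs5 and Cish, and the phosphatase Ptpn6. These are 10 of the 55401 genes listed. Values are length-scaled transcript abundances (TPM), which divide reads by transcript length and scale every library to the same total, so genes can be compared with each other by level. A gene was tested where its mean TPM over the 9 libraries was at least 1, which held for 12819 genes and for 7 of the 10. Socs1, Socs2 and Cish stayed below it.

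RNA was taken from RAW264.7 cells, a wild-type male mouse macrophage line that grew from a tumour induced by Abelson leukemia virus. One group received the solvent dimethyl sulfoxide (DMSO), one received DMSO with the bacterial endotoxin lipopolysaccharide (LPS), and one received LPS with skatole (LPS + Ska), a methylated indole that gut bacteria make from tryptophan. No DMSO is named for the last group, no dose stands in the labels, and each group has 3 libraries numbered 5, 6 and 7 that the labels place at 24 h, while the study's methods give a longer treatment for the RNA. A single line was used and nothing says that the libraries came from separate cultures, so p-values measure only the spread between these samples, which may be technical.

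Libraries 5 of both LPS groups are not separate observations. In every gene that was above 0 in all 3 libraries of its group, library 5 equalled the mean of libraries 6 and 7 to within 1e-04 TPM (17950 of 17950 genes with LPS and 17658 of 17658 with LPS + Ska), whereas no DMSO library did so in more than 0.21% of 15721 genes. At most 2 independent values per gene can be recovered in each of those groups, and each comparison was also fitted with those 2 in place of 3. The recovered 2 are library 5 plus and minus 0.5 times its larger distance to library 6 or 7. Libraries 6 and 7 therefore lie further apart than the recovered pair (Jak1 with LPS, 76.0 and 78.9 TPM beside 76.7 and 78.1 TPM). Levels, overlaps and spreads below are those of the listed libraries unless recovered values are named. The table gives no depth, so no counting error can be attached to a TPM. All 8 macrophage markers examined were tested and none was below 18.1 TPM in any library, while 3 of 3 T cell and 3 of 3 epithelial markers were listed at 0 in all libraries, B cell markers did not exceed 0.672 TPM, fibroblast markers 0.0337 TPM and neutrophil markers 3.07 TPM.

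Cytokine receptors of the haematopoietic classes have no kinase activity of their own. Janus kinases sit on their tails, phosphorylate each other and the receptor when ligand binds, and so create docking sites for the STAT transcription factors, which are phosphorylated in turn and enter the nucleus. In macrophages LPS reaches this pathway mostly at second hand, through secreted interferon beta and other cytokines. SOCS genes are classical STAT targets and their proteins feed back on the pathway by blocking kinases or by bringing receptor complexes to a ubiquitin ligase, and Ptpn6, known as SHP-1, removes phosphate from receptors and kinases in blood cells.

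The promoters of the feedback genes are shown because the letters through which STAT and interferon signals are known to act can be seen in them. Each runs from 250 bases before to 50 bases after the RefSeq start in GRCm38.p6, 5′ to 3′ along the gene's strand. Capitals mark the palindromic STAT element TTCNNNGAA in Cish (chr9:107296409-107296708, plus strand) and Socs3 (chr11:117969317-117969616, minus strand), and the interferon response element (GAAA, any 2 bases, GAAA) in Socs1 (chr16:10785487-10785786, minus strand).
Cish: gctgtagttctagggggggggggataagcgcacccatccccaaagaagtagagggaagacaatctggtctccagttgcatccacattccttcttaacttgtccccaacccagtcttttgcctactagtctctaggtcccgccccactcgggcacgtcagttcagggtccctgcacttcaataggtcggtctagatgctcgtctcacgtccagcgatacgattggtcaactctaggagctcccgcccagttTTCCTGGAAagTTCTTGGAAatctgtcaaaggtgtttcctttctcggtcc
Socs3: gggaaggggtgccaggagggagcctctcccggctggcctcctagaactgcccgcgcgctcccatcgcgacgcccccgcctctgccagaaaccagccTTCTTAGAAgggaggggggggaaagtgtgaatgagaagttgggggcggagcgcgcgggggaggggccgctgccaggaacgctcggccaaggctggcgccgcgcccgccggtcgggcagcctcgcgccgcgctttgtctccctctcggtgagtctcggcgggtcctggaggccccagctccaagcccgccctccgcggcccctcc
Socs1: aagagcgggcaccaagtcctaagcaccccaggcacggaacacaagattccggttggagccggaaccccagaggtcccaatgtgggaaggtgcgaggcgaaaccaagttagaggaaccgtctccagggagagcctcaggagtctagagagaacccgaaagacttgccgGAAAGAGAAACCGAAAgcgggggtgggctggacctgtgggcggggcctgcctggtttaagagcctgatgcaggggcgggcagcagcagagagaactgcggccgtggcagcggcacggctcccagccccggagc
Both strands were searched. Cish holds 2 STAT elements, TTCCTGGAA at the start itself and TTCTTGGAA 11 bases after it, and Socs3 holds TTCTTAGAA 154 bases before its start. Socs1 holds GAAAGAGAAA and GAAACCGAAA 83 and 77 bases before its start, which overlap. RefSeq promoters were matched for 8 of the 10 genes, not for Socs2 and Socs5: 2 of the 8 held the STAT element against 8.29% of 32817 promoters of the same length, and 1 held the interferon element against 3.43%. The NF-kB element was in 0 of the 8 and in 8.46% of all promoters. These are matches of letters and not bound sites.

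Jak1 (ENSMUSG00000028530, chr4:101152367-101265282, minus strand), the kinase shared by the interferon, gp130 and common gamma chain receptors, was the most abundant of the 4 in all groups. It read 53.3, 59.2 and 62.2 TPM with DMSO, 77.4, 76.0 and 78.9 TPM with LPS, and 64.6, 71.0 and 58.2 TPM with LPS + Ska, libraries in the order 5, 6, 7. The LPS libraries lay above all others and the LPS + Ska libraries overlapped with DMSO. The log2 fold change of (TPM + 1) was 0.41 (SE 0.08, limma adjusted p = 0.00215) for LPS against DMSO and -0.26 (SE 0.08, adjusted p = 0.0417) for LPS + Ska against LPS. A gene was called higher or lower where its adjusted p was below 0.05 and its fold above 1.5 or below 0.67. Only the fold limits were taken from the study, and Jak1 stayed inside them in both comparisons. The second p was 0.087 with the 2 recovered values per group. Raver2 and Gm24468 overlap Jak1 on the opposite strand and Gm12785 on the same one.

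Jak2 (ENSMUSG00000024789, chr19:29251828-29313080, plus strand), the kinase of the interferon gamma receptor's second chain and of the growth factor receptors for GM-CSF and erythropoietin, rose with LPS. Its libraries read 12.9, 12.7 and 13.4 TPM with DMSO, 20.8, 20.6 and 21.1 TPM with LPS, and 22.9, 25.5 and 20.3 TPM with LPS + Ska. DMSO lay below both other groups, which overlapped with each other as listed. Their recovered values did not overlap, at 20.7 and 20.9 TPM with LPS and 24.2 and 21.6 TPM with LPS + Ska (adjusted p = 0.394, limma). The difference was 0.64 log2 units for LPS against DMSO (SE 0.09, 95% interval 0.44 to 0.83, adjusted p = 0.000198, limma) and 0.13 for LPS + Ska against LPS, with an interval from -0.07 to 0.32 (adjusted p = 0.306).

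Tyk2 (ENSMUSG00000032175, chr9:21104068-21131243, minus strand), which pairs with Jak1 at the type I interferon and IL-10 receptors and with Jak2 at the IL-12 receptor, moved the other way. It read 30.1, 33.4 and 35.1 TPM with DMSO, 18.3, 18.4 and 18.1 TPM with LPS, and 14.9, 16.3 and 13.5 TPM with LPS + Ska. The 3 groups did not overlap, with LPS + Ska lowest. Tyk2 fell by 0.81 log2 units with LPS (SE 0.09, adjusted p = 4.58e-05, limma). Its further difference of -0.28 with skatole (SE 0.09, adjusted p = 0.0414) stayed inside the fold limits, and its p was 0.105 with the recovered values. An antisense gene, 1700084C06Rik, overlaps Tyk2, and reads of the pair cannot be told apart without strand, which is not stated for the counting.

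Jak3 (ENSMUSG00000031805, chr8:71676296-71690575, plus strand), the kinase of the common gamma chain, was the least abundant of the 4 in all groups by its mean. It read 12.2, 8.12 and 6.52 TPM with DMSO, 6.84, 6.49 and 7.20 TPM with LPS, and 4.82, 4.45 and 5.19 TPM with LPS + Ska. DMSO library 5 stood above the rest, DMSO and LPS overlapped, and the LPS + Ska libraries were the lowest. Its difference was -0.31 log2 units for LPS against DMSO (SE 0.18, adjusted p = 0.175, limma) and -0.43 for LPS + Ska against LPS (SE 0.18, adjusted p = 0.107), neither called. Insl3 overlaps Jak3 on the same strand.

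Ptpn6 (ENSMUSG00000004266, chr6:124720707-124738714, minus strand) was the most abundant of the 10 in all groups. It read 391, 395 and 377 TPM with DMSO, 303, 287 and 319 TPM with LPS, and 226, 214 and 237 TPM with LPS + Ska, and the 3 groups did not overlap. The difference was -0.35 log2 units (SE 0.06, adjusted p = 0.000562, limma) for LPS against DMSO and -0.42 (SE 0.06, adjusted p = 0.001) for LPS + Ska against LPS. Each was inside the fold limits, and the second had an adjusted p of 0.00433 with the recovered values. The antisense gene Gm20531 overlaps Ptpn6.

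Socs3 (ENSMUSG00000053113, chr11:117966079-117970047, minus strand), which binds gp130 and the G-CSF receptor and inhibits the kinase bound there, rose with LPS. It read 12.1, 12.5 and 14.4 TPM with DMSO, 21.7, 23.9 and 19.5 TPM with LPS, and 18.0, 20.6 and 15.3 TPM with LPS + Ska. The LPS + Ska libraries lay above DMSO and overlapped with LPS as listed. The recovered values did not overlap, at 22.8 and 20.6 TPM with LPS and 19.3 and 16.7 TPM with LPS + Ska (adjusted p = 0.184, limma). The difference was 0.70 log2 units for LPS against DMSO (SE 0.12, adjusted p = 0.000899, limma) and -0.26 for LPS + Ska against LPS, with an interval from -0.54 to 0.01 (adjusted p = 0.137).

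Socs5 (ENSMUSG00000037104, chr17:87107679-87137839, plus strand), a SOCS protein with a long N-terminal region, read 15.8, 17.6 and 20.6 TPM with DMSO, 19.8, 20.3 and 19.3 TPM with LPS, and 18.7, 20.3 and 17.2 TPM with LPS + Ska. All 3 groups overlapped as listed, though the recovered values with LPS (20.08 and 19.54 TPM) lay just above those with LPS + Ska (19.51 and 17.98 TPM). The interval of its difference ran from -0.09 to 0.37 log2 units for LPS against DMSO (adjusted p = 0.259, limma) and from -0.31 to 0.15 for LPS + Ska against LPS (adjusted p = 0.598).

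The 3 remaining SOCS genes were below 1 TPM in all libraries. Socs1 (ENSMUSG00000038037, chr16:10782240-10785536, minus strand), which blocks kinase activity downstream of the interferon receptors, read 0.657, 0.277 and 0.472 TPM with DMSO, 0.912, 0.939 and 0.885 TPM with LPS, and 0.502, 0.391 and 0.613 TPM with LPS + Ska. The LPS libraries were the highest and the other groups overlapped. In a limma fit without the level filter (25181 genes) its difference was 0.39 log2 units for LPS against DMSO (SE 0.10, adjusted p = 0.0209) and -0.35 for LPS + Ska against LPS (adjusted p = 0.0516), neither past the fold limits, and the added 1 TPM holds down folds at such levels.

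Cish (ENSMUSG00000032578, chr9:107296026-107302784, plus strand), a target of STAT5, read 0, 0.279 and 0 TPM with DMSO, 0.328, 0.298 and 0.357 TPM with LPS, and 0.0844, 0.00370 and 0.165 TPM with LPS + Ska. Socs2 (ENSMUSG00000020027, chr10:95385362-95417180, minus strand), known for restraining growth hormone signals, read 0.194, 0 and 0 TPM with DMSO, 0.242, 0.0977 and 0.387 TPM with LPS, and was listed at 0 in the LPS + Ska libraries. For Cish the LPS libraries were the highest, while Socs2 overlapped between DMSO and LPS. In the limma fit without the level filter Cish differed by 0.29 log2 units for LPS against DMSO (adjusted p = 0.0674) and by -0.29 for LPS + Ska against LPS (adjusted p = 0.0961), and Socs2 by 0.22 (adjusted p = 0.135) and -0.31 (adjusted p = 0.0746), none called. Gm17040 and Gm17041 overlap Cish on the opposite strand.

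**Figure D1:**
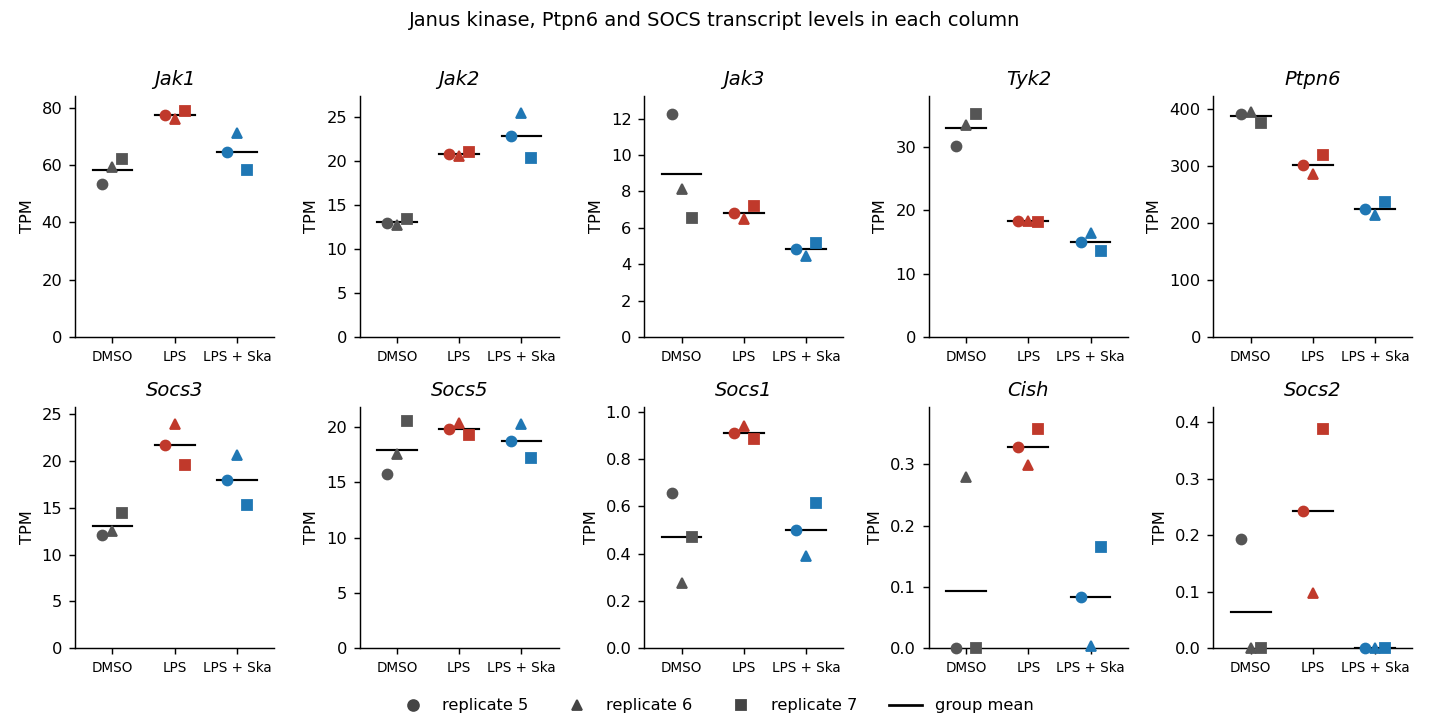
TPM of each of the 10 genes (vertical axis, from 0, own scale per panel) in the DMSO, LPS and LPS + Ska libraries, with one point per library, its shape giving the replicate number, and a line at the group mean. Tyk2 and Ptpn6 step down from DMSO to LPS to LPS + Ska without overlap, Jak2 and Socs3 sit lowest in DMSO, and Socs1, Cish and Socs2 stay below 1 TPM.

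For LPS against DMSO, 2 of the 7 tested genes were called higher (Jak2 and Socs3) and 1 lower (Tyk2), where 12.7% and 20% of the 12819 genes were. Their median difference was 0.14 log2 units beside -0.07 over all genes tested. Ptpn6 and Jak1 had adjusted p-values under 0.05 inside the fold limits. In bulk RNA, fewer cells of a kind and less RNA per cell cannot be told apart. The summed TPM of the 8 macrophage markers was 11140 to 12100 with DMSO, 5889 to 6213 with LPS and 11510 to 11690 with LPS + Ska. Most of it came from Lyz2, at means of 9151, 4423 and 10061 TPM in that order. Csf1r (835, 522 and 467), Cd68 (839, 657 and 608) and Spi1 (408, 233 and 230) did not return to the DMSO level. For LPS + Ska against LPS, 3 of the 8 had a positive difference and 5 a negative one. The part of these markers in the results was not tested.

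For LPS + Ska against LPS, 0 of the 7 tested genes were called, where 9.49% of all genes were, in either direction. By limma 3 had an adjusted p below 0.05 alone (Ptpn6, Tyk2 and Jak1), where 28.6% of all genes did, and 4 an unadjusted p below 0.05, Jak3 being the fourth. Only Ptpn6 of these kept an adjusted p below 0.05 with the recovered values. The median over the 7 was -0.26 log2 units beside -0.10 over all genes, and Jak2 alone had a positive value.

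LPS + Ska was also set against DMSO, and this comparison shares its libraries with the other two. Jak2 was called higher (0.76 log2 units, SE 0.09, adjusted p = 5.6e-05, limma), as were 11.4% of all genes. Called lower, as were 25.3% of all genes, were Tyk2 (-1.09, adjusted p = 6.04e-06), Ptpn6 (-0.78, adjusted p = 3.75e-06) and Jak3 (-0.74, adjusted p = 0.00588). Jak3 rested on DMSO library 5, and without it the difference was -0.51 (adjusted p = 0.00622), inside the fold limits. Socs3 differed by 0.43 (adjusted p = 0.0114), inside the limits as well. Jak1 differed by 0.15 (adjusted p = 0.151) and Socs5 by 0.06 (adjusted p = 0.615).

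**Figure D2:**
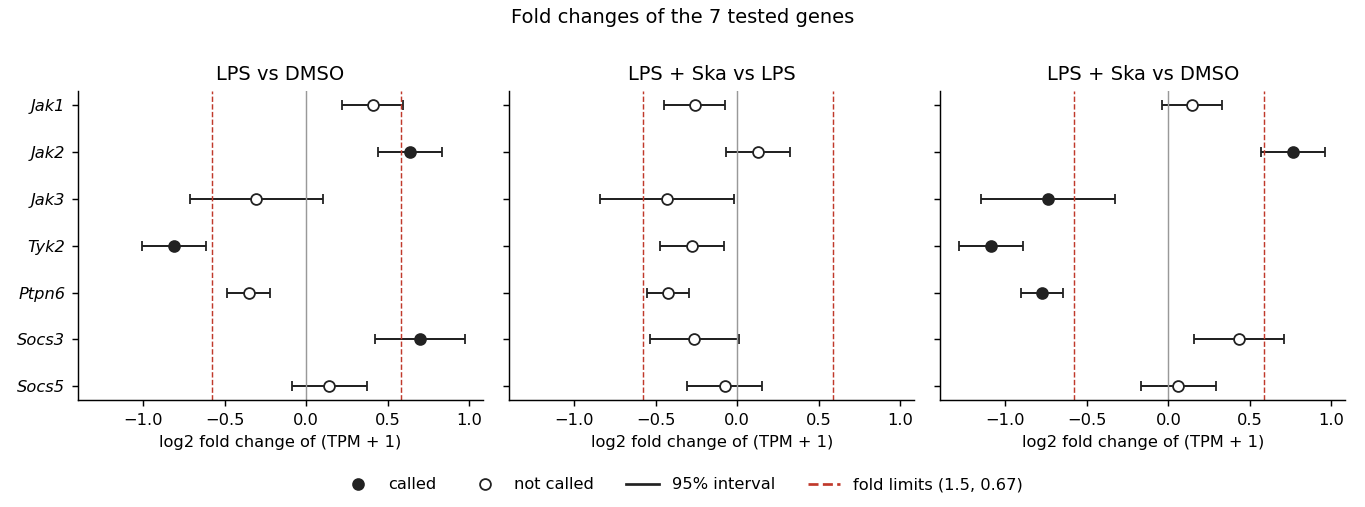
Log2 fold change of (TPM + 1) for the 7 tested genes in the 3 comparisons, as points with 95% limma intervals; filled points were called, open points were not, and dashed lines stand at folds of 1.5 and 0.67. Jak2 and Socs3 lie to the right and Tyk2 to the left for LPS against DMSO, and no point is filled for LPS + Ska against LPS.

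The make-up of the summed kinase transcripts differed between groups. Jak1 held 51.4% ± 2.08 of the summed kinase TPM with DMSO, 62.8% ± 0.186 with LPS and 60.2% ± 0.324 when skatole was added (SD, n = 3 libraries, tied as described in both LPS groups). Tyk2 held 29.1% ± 1.17, 14.8% ± 0.316 and 13.9% ± 0.0139, and Jak2 held 11.5% ± 0.347, 16.9% ± 0.0720 and 21.3% ± 0.433 in the same order. So Tyk2 was the second kinase with DMSO, and Jak2 was second in both LPS groups. Jak3 held 8.0% ± 2.95, 5.55% ± 0.202 and 4.54% ± 0.770.

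The ratio of Tyk2 to Jak2 TPM, chosen after these genes were seen to move in opposite directions and given as a description with no test, was 2.52 ± 0.169 with DMSO, 0.877 ± 0.0150 with LPS and 0.653 ± 0.0126 with LPS + Ska. It lay above 1 with DMSO and below 1 in both LPS groups, and the scaling of a library does not affect it. Ptpn6 over the summed kinases, also chosen with its values seen, was 3.43 ± 0.20, 2.46 ± 0.0908 and 2.13 ± 0.307. The listed libraries of both LPS groups overlapped in it. Its recovered values did not, at 2.414 and 2.505 with LPS and 1.962 and 2.266 with LPS + Ska. The kinases summed to 113 ± 4.37, 123 ± 1.94 and 107 ± 10.0 TPM, and the 5 SOCS genes to 31.6 ± 3.45, 43.0 ± 2.6 and 37.3 ± 4.0 TPM (SD, n = 3).

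**Figure D3:**
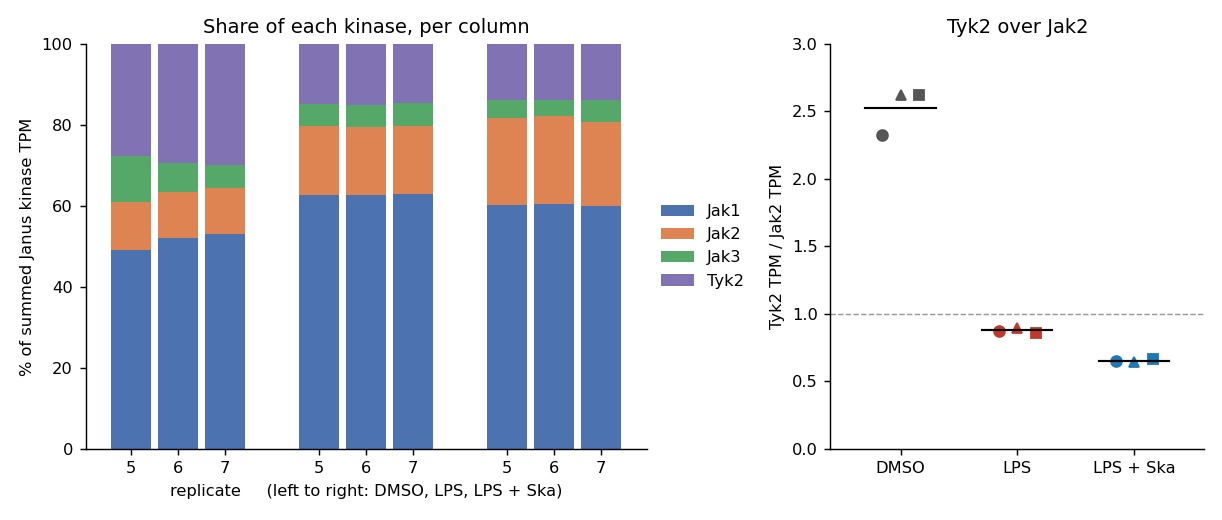
Left, percent of the summed Janus kinase TPM held by Jak1, Jak2, Jak3 and Tyk2 in each library (bars stack to 100, replicate numbers below); right, Tyk2 TPM divided by Jak2 TPM, points per library and lines at group means, with a dashed line at 1. Tyk2 exceeds Jak2 in the DMSO libraries and lies below it in all LPS and LPS + Ska libraries.

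By mean level Ptpn6 and Jak1 came first and second in all groups. With DMSO Tyk2 and Socs5 followed, and then Jak2, Socs3 and Jak3, whose libraries overlapped from one to the next. With LPS the order after Jak1 was Socs3, Jak2, Socs5, Tyk2 and Jak3, and the Socs3 libraries overlapped with those of Jak2 and of Socs5. With LPS + Ska it was Jak2, then Socs5, Socs3 and Tyk2, overlapping from one to the next, and Jak3. Socs3 overlapped with Jak2 there as well. These are overlaps of the listed libraries. By the recovered values Socs3 did not overlap with Socs5 with LPS, nor with Jak2 or Tyk2 with LPS + Ska. Socs1, Cish and Socs2 closed the order in each group.

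The genes whose pair of differences (LPS against DMSO, LPS + Ska against LPS) lay nearest to a gene called in either of them were sought among genes called in the same direction. Nearest to Jak2, of 1624 candidates, were Qk, Dynlt1b and Gm5586, at distances of 0.00391 to 0.00996 log2 units. Nearest to Tyk2, of 2555, were Rasal1, Anks3 and Tango2 (0.00605 to 0.0163), and nearest to Socs3, of 1624, were Cbll1, Hmgn5 and Ltn1 (0.0172 to 0.0192). These distances rest on 9 libraries and describe likeness of values only.

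Upstream of the kinases, 4 of the 8 tested ligands (16 listed) rose with LPS and 0 fell (12.7% and 20% of all genes), with a median of 0.66 log2 units beside -0.07 over all genes. Csf3, encoding G-CSF, rose by 5.43 (adjusted p = 1.62e-10, limma), and Il6 and Lif, both ligands of gp130 complexes, by 2.41 and 2.2. Ebi3, a subunit of IL-27, rose by 0.99. Csf3, Il6 and Lif had DMSO means of 0, 0 and 0.315 TPM. Csf3 passed the level filter only through the groups with LPS. Il6 and Lif, at means of 0.259 and 0.828 TPM with LPS + Ska, passed it only through the LPS group. The count of risen ligands, their median and the count of ligands called lower with skatole are therefore in part set by the filter. With skatole Il6 fell by 2.08 (adjusted p = 5.9e-05) and Lif by 1.72 (adjusted p = 0.000143), while Csf3 differed by 0.09 (adjusted p = 0.357). Il15 was the third ligand called lower there, at -0.65 (adjusted p = 0.0416), where 6.14% of all genes were called lower, but its adjusted p was 0.0849 with the recovered values and the call was lost.

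Of the chains of receptors that use these kinases, 17 of 29 were tested, and 11 fell and 1 rose with LPS (20% and 12.7% of all genes), with a median of -0.85 log2 units beside -0.07 over all genes. Il6st, which encodes gp130 and binds Jak1, went from a mean of 29.6 to 9.55 TPM (-1.54, adjusted p = 3.06e-06, limma). Il10ra, bound by Jak1, and Il10rb, bound by Tyk2, fell by 1.39 and 1.36, and Il12rb1, another Tyk2 partner, by 1.01 (adjusted p = 0.00298). Csf3r and Il15ra fell by 1.61 and 1.28. Csf3r averaged 3.97 TPM in the DMSO libraries, but only 0.597 after LPS alone and 0.486 where skatole was added. It passed the level filter only through the DMSO group. Il7r rose by 0.95, from a DMSO mean of 0.90 TPM, and passed the level filter only through the groups with LPS. The counts of fallen and risen chains and their median are therefore in part set by the filter. Without it 11 were called lower and 2 higher with LPS, and with a filter of 5 TPM 9 and 0. With skatole 1 of the 17 was called, Il13ra1, which fell by 0.58 (adjusted p = 0.000868). That is 5.88% of the list, near the 6.14% of all genes called lower, and the count was 0 with median-ratio scaling, without LPS library 6 and without LPS + Ska library 7.

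Of the STATs, which the kinases phosphorylate, Stat3 rose by 0.63 log2 units with LPS (adjusted p = 0.000171, limma) and differed by -0.29 with skatole, not called. Stat2 was called only with skatole, at -0.85 (adjusted p = 0.00631), beside -0.25 (adjusted p = 0.229) with LPS. Stat5a, Stat5b and Stat6 differed by -0.32, -0.36 and -0.38 with LPS and by -0.27, -0.05 and -0.05 with skatole, none called. Stat4 was listed at 0 in all libraries and was not tested.

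Of 15 other negative regulators, all tested, 3 rose and 3 fell with LPS, 20% each way beside 12.7% and 20% of all genes. Usp18, an interferon-induced protein that blocks the type I interferon receptor, rose by 5.09 (adjusted p = 1.26e-06, limma) and fell by 1.36 with skatole (adjusted p = 0.0102). Socs6 and Pias2 rose by 0.86 and 0.84. The phosphatase Ptpn1, which acts on Jak2 and Tyk2, fell by 0.69 (adjusted p = 4.81e-05), and Pias3 and Pias4, which restrain STATs, fell by 0.90 and 0.78. With skatole 2 of the 15 were called, both lower: Usp18 and the ubiquitin ligase Cblb (-0.69, adjusted p = 0.00449, named after its value was seen). That is 13.3% of the list beside 6.14% of all genes called lower. The count was not stable, being 1 with a pseudocount of 0.1 and with a level filter of 5 TPM. The adjusted p of Usp18 was 0.049 with the recovered values.

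SOCS proteins act through a ligase of elongins, Cul5 and Rnf7. Of these 4 partners, Eloc rose by 1.14 (adjusted p = 8.4e-07, limma) and Cul5 by 0.81 (adjusted p = 6.84e-05) with LPS, where 12.7% of all genes did. With skatole 0 were called, where 9.49% of all genes were. Among 20 STAT target genes 9 were tested, of which 5 rose with LPS (12.7% of all genes): Il1rn by 2.76, Cxcl10 by 2.17, Irf9 by 1.90, Bcl2l1 by 1.62 and Bcl3 by 0.96. With skatole Cxcl10 fell by 1.52 (adjusted p = 0.00053) and Pim1 by 0.68 (adjusted p = 0.031), but the Pim1 call was lost with the recovered values (adjusted p = 0.083). The count of targets called lower was also 1 in place of 2 with median-ratio scaling and without the level filter. It was 1 as well without LPS library 5 or 7 or LPS + Ska library 5 or 6. With a pseudocount of 0.1 it was 4, and with a level filter of 5 TPM it was 3. Of all genes, 6.14% were called lower there. As a check of the LPS labels, 6 of 6 response genes rose, from 1.65 for Tnf to 5.26 for Nos2, where 12.7% of all genes did. Il1b, Il1a and Nos2 had DMSO means of 0.155, 0.0859 and 0 TPM and passed the level filter only through the groups with LPS. The list was also chosen with earlier results known, so the count is no independent check.

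**Figure D4:**
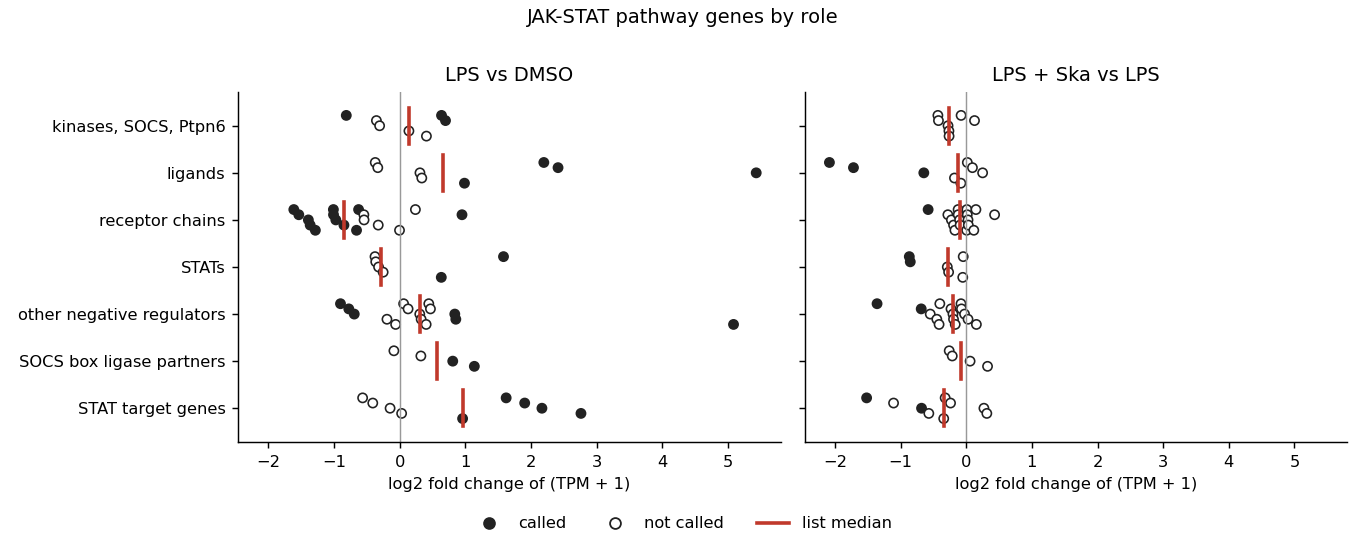
Log2 fold change of (TPM + 1) of each tested gene of the pathway by role, for LPS against DMSO and LPS + Ska against LPS; filled points were called, open points were not, and red lines mark list medians, with points spread vertically for legibility. Receptor chains lie mostly left of 0 with LPS (11 of 17 called lower), whereas the kinases, SOCS genes and Ptpn6 lie on both sides (2 higher and 1 lower of 7).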

How the data were processed

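Per the submitters' processing notes, reads were handled with fastp 0.20.1, HISAT2 2.2.1 and StringTie 2.0 on mm10; the annotation and counting settings are not given in the sources used here. The deposited table holds TPM values that the authors computed per gene, as 9 columns (3 per group), each summing to between 999894.9 and 1000145. All 9 columns matched sample labels and 0 were left unused. Of 55401 identifiers, 55141 had a symbol. Gene positions are GRCm38 (GENCODE annotation) and promoters RefSeq. TPM was tested as log2(TPM + 1) with limma 3.58.1 (R 4.3.3) in a group-only model over all 9 columns, with an intensity trend and Benjamini-Hochberg adjustment over all 12819 genes of mean TPM at least 1; fold changes on this scale understate changes of low genes. The script was tested on simulated data. Python 3.11.15 and matplotlib 3.10.9 drew the figures. The members and lists were chosen with earlier results of these data known. All members are named, and by rule all STATs and, in other lists, up to 6 called genes with the largest absolute difference in either LPS comparison; one item is not reported here. For each member called in LPS against DMSO or LPS + Ska against LPS, the 3 nearest by Euclidean distance over both differences are named, from the genes that carried the same call. Alternatives were a pseudocount of 0.1, other level filters, no intensity trend, median-ratio scaling, recovered values, fits of the compared groups alone, a replicate block, a call by adjusted p alone and leaving out each replicate.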

Additional observations from a re-analysis of the deposited data

How the results depend on the processing

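Over 18 alternatives, 104 of 108 counts of called members stayed within 1.5 times the reported count, and no reported direction of a called gene reversed. With median-ratio scaling, members called higher in LPS + Ska against DMSO numbered 2 in place of 1, Socs3 being added (0.61, limma adjusted p = 0.00111). That scaling moved the median of all genes by 0.07, 0.09 and 0.16 log2 units for LPS against DMSO, LPS + Ska against LPS and LPS + Ska against DMSO. For LPS + Ska against LPS it turned the split of all called genes from 429 higher and 787 lower to 588 and 543, and for LPS + Ska against DMSO from 1457 and 3243 to 2153 and 2295. With it, LPS + Ska against LPS gave -0.32 (adjusted p = 0.00728) for Ptpn6, -0.18 (0.0852) for Tyk2 and -0.16 (0.0897) for Jak1, and Socs5, not called, turned from -0.08 to 0.02. With adjusted p alone as the rule, 2 members were lower for LPS against DMSO (1 reported), 3 were lower for LPS + Ska against LPS (0 reported) and 2 were higher for LPS + Ska against DMSO (1 reported). Leaving out one replicate at a time gave 2 to 2 higher and 1 to 1 lower, 0 to 0 and 0 to 0, and 1 to 1 higher and 2 to 3 lower in the 3 comparisons, the 2 coming without DMSO replicate 5. A replicate block changed no member's call (Tyk2 with LPS -0.81, adjusted p = 0.000281). Deviations of same-numbered libraries correlated at -0.032 to 0.0801 between DMSO and either LPS group, and at 0.128 to 0.384 between both LPS groups, whose tied columns make these 3 values no separate observations, and the shared numbers were not treated as a pairing. Limits are the tied libraries, the unknown depth and 1 cell line.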
